A study of Homo sapiens with 18 samples.

Results

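The matrix metalloproteinases (MMPs), the ADAMTS proteases and the tissue inhibitors of metalloproteinases (TIMPs) were described in cells labelled as the osteosarcoma line Soas-2 (Saos-2) under 6 culture and tumor conditions. Genes were taken by symbol alone, as any MMP, ADAMTS or TIMP gene with a number, and 47 of the 50119 genes in the table met this rule: 24 MMP, 19 ADAMTS and 4 TIMP genes. MMPs are zinc-dependent proteases that cut collagens, gelatin, laminin, proteoglycans and other matrix proteins, and some of them activate each other. ADAMTS proteases carry thrombospondin repeats and process procollagens, proteoglycans, fibrillin-associated proteins and von Willebrand factor. TIMPs bind the active site of these enzymes, and in bone tumors the balance of the families is studied for invasion and matrix turnover.

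RNA sequencing was made of 18 libraries, 3 in each group, and every group held the same cells, labelled WT. D-2 were cells grown flat for 14 days, D-3 were cells grown in Matrigel for 14 days, and DP-3 was tissue printed with cells in a bioink of methacrylated gelatin and alginate and cultured for 14 days. A further group, DP-3 day 1, was the printed tissue after 1 day. FIT was fresh tumor, formed by cells injected with Matrigel under the skin of female BALB/c nude mice 4 weeks old and removed at week 2. IT was tumor tissue of that kind cultured on Matrigel for 14 days. The study divided excised tumors between IT and FIT, so libraries of these groups may share a tumor, and the labels do not say which. Matrigel is a mouse basement membrane extract with laminin and collagen of its own, and nude mice lack T cells but keep endothelium, stroma and innate immune cells. No source used here says that mouse reads were separated from human ones.

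Library totals ran from 50327345 to 79082786 estimated counts, except FIT replicate 3 with 23721666. About 4 of these counts stood for 1 read pair, so 12 counts, or 3 read pairs, served as the detection limit (counting error only). The 3 DP-3 day 1 libraries were nearly alike in their most abundant genes. This was measured on genes with at least 100000 counts in both libraries, 29 or 30 genes here and 10 to 52 in the other groups. The median absolute log2 difference between any 2 of them was 0.0144 to 0.0189, against 0.0666 to 0.546 for pairs in the other groups. Over all genes the correlation of log2 FPKM was 0.9453 to 0.9459 between these libraries, and 0.9565 to 0.9859 within the other groups. The DP-3 day 1 libraries were counted as 1 sample, with no SD, though no label says that they are. DP-3 replicate 3 had 34.0% of its FPKM in mitochondrial genes, the highest share. Of the defining osteoblast genes, ALPL, SP7, IBSP and PTH1R averaged under 0.1 FPKM in every group, while SPARC averaged 126 to 181 FPKM. ALPL encodes the alkaline phosphatase by which this line is usually known, and the cells are called here by their label. Nothing shows the 3 libraries of a group to be separate cultures, so p-values measure the spread between libraries, which may be technical.

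Of the MMP genes, 9 lay side by side on chromosome 11 (chr11:102520508-102955732, positions on GRCh38, 435.2 kb), all on the minus strand: MMP7, MMP20, MMP27, MMP8, MMP10, MMP1, MMP3, MMP12 and MMP13. The results turn largely on 6 of them, so the coding stretch of their zinc-binding site follows, with the codons of the 3 zinc-binding histidines in capitals. Each stretch is 33 bases within exon 5 of the GENCODE 29 transcript.
MMP1: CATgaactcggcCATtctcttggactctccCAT
MMP3: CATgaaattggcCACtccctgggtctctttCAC
MMP7: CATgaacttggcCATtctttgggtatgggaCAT
MMP10: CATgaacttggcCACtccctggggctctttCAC
MMP12: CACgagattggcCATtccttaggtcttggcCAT
MMP13: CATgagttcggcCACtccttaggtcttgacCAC
The stromelysins MMP3 and MMP10 were identical at 31 of the 33 bases (93.9%), MMP12 and MMP13 at 81.8%, and the collagenases MMP1 and MMP13 at 66.7%. The MMP1 site lies at chr11:102795549-102795581 and the MMP3 site at chr11:102840535-102840567. Reads of 150 bases could still tell the 6 genes apart, since the longest stretch shared exactly by the MMP3 and MMP10 transcripts was 96 bases. MMP23A and MMP23B shared 1017 bases, the only pair of members to share 150 or more, and their values cannot be told apart.

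Levels are given in FPKM, which is scaled to transcript length and library size and so can be compared between genes. Of the 47 genes, 25 reached a mean of 1 FPKM in some group, 11 reached 10, and 13 stayed under 0.1 in all groups. MMP transcripts summed to 236.6 to 247.5 FPKM in the D-2 libraries and 273.1 to 380.7 in FIT. ADAMTS transcripts summed to 21.7 to 23.4 FPKM in D-3 and 51.5 to 66.9 in FIT, and these ranges did not overlap. TIMP transcripts summed to 302.2 to 319 FPKM in D-2, and IT libraries ran from 282 to 1036. MMP14 or MMP2 led the MMP sum in every group, ADAMTS12 led the ADAMTS sum except in FIT, where ADAMTS1 did, and TIMP3 made 55.2% to 72.8% of the TIMP sum.

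Of the collagenases, MMP1, which cuts fibrillar collagen, was 27.1, 28.0 and 28.8 FPKM in D-2, 62.8, 105.8 and 56.1 in D-3, 92.5, 51.6 and 64.7 in IT, 84.3, 95.0 and 56.3 in DP-3, and 46.5, 29.1 and 14.8 in FIT. It was 20.5, 21.6 and 21.6 FPKM in DP-3 day 1. All D-3, DP-3 and IT libraries stood above all D-2, DP-3 day 1 and FIT libraries. MMP13, the collagenase of bone and cartilage, was 7.06, 3.94 and 7.37 FPKM in DP-3, 1.06, 2.87 and 2.31 in D-3, 0.924, 0.743 and 0.740 in D-2, 0.576, 0.449 and 0.966 in DP-3 day 1, 0.339, 1.08 and 1.18 in IT, and 0.440, 0.306 and 0.334 in FIT. Each DP-3 library was above every library of the other groups. MMP1 shares 150 exon bases with WTAPP1 on the other strand, and the sources used here do not say whether counting used strand.

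Of the stromelysins, MMP3, which cuts proteoglycans and laminin and activates other MMPs, was 0.189, 0.252 and 0.320 FPKM in FIT (28, 38 and 17 estimated counts). In the other groups it was 7.96, 8.19 and 7.96 FPKM in D-2, 29.3, 31.7 and 52.4 in D-3, 16.6, 17.0 and 15.3 in DP-3 day 1, 15.7, 12.8 and 16.0 in DP-3, and 3.11, 12.8 and 26.3 in IT. FIT was thus the lowest group, with counts just over the detection limit, D-3 was the highest, and IT libraries spread from 3.11 to 26.3 FPKM. MMP10, the other stromelysin, was 1.12, 1.31 and 0.806 FPKM in D-3, 0.204, 0.259 and 0.224 in D-2, 0.270, 0.343 and 0.338 in DP-3 day 1, 0.563, 0.588 and 0.236 in DP-3, 0.528, 0.304 and 0.536 in IT, and 1.24, 0.0537 and 0.153 in FIT. In FIT 1 library was high and the others low, so that group overlapped all others.

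MMP12, the macrophage elastase, was 3.14, 2.54 and 4.54 FPKM in D-3, 0.206, 1.46 and 4.02 in IT, 0.925, 2.64 and 7.42 in DP-3, 0.759, 0.600 and 0.679 in D-2, 0.403, 0.236 and 0.973 in DP-3 day 1, and 0.287, 0.129 and 0 in FIT. The D-3 libraries were all above D-2 and FIT, while DP-3 spread widely, with its highest value in the library with the high mitochondrial share. Of 12 macrophage genes, 5 were tested in D-3 against FIT and 1 was called: CD163, a scavenger receptor, averaged 0.470 FPKM in D-3 and 0.00277 in FIT (adjusted p = 0.00861 by edgeR). In D-3 against D-2, 2 of 5 tested were called higher, CD163 and ITGAM. CD163 in FIT and D-2, and ITGAM in D-2, stayed under 0.1 FPKM in every library. With 0.1 FPKM required in at least 3 of the 6 libraries, they could be tested there only as higher in D-3. LYZ averaged 1.34 FPKM in D-3 and 0.275 in FIT and CD68 70.7 and 39.5, neither of them called, while the defining genes C1QA, C1QB, C1QC and TYROBP were at 0 in every FIT, DP-3 and D-3 library. The list summed to 61.8 to 86.5 FPKM in D-3, 43.2 to 45.9 in D-2, 47.8 to 117 in DP-3 and at most 56.3 in FIT, most of it CD68, and its part in the MMP12 values was not tested. MMP7, or matrilysin, was the lowest of the 6, at 0.107, 0.223 and 0.563 FPKM in D-3, 0.0177, 0.0182 and 0.0328 in D-2, 0, 0.0850 and 0.0817 in DP-3 day 1, 0.0749, 0.0694 and 0.0663 in DP-3, 0, 0.382 and 0.129 in IT, and 0.0405, 0.0204 and 0 in FIT. D-2 and FIT were below the detection limit of MMP7 in every library.

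**Figure D1:**
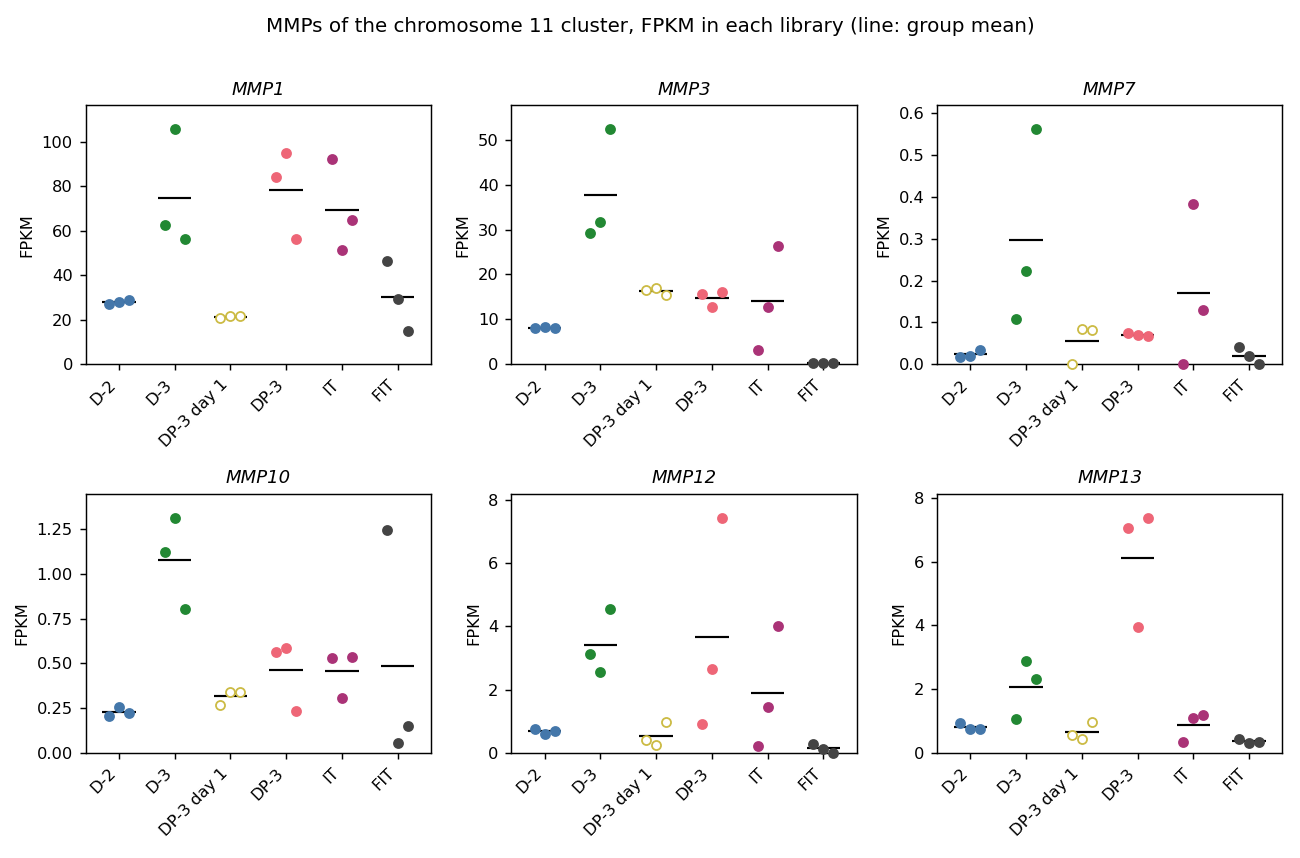
FPKM of 6 MMP genes of the chromosome 11 cluster in each of the 18 libraries, with 1 panel per gene, linear axes from 0, points for libraries and a line at the group mean; open points mark DP-3 day 1, whose libraries count as 1 sample. MMP3 is between 0.189 and 0.320 FPKM in FIT and at least 3.11 elsewhere, and MMP13 is highest in DP-3.

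The gelatinase MMP2, which cuts denatured collagen and collagen IV, was 95.4, 102 and 98.4 FPKM in D-2, 72.2, 65.9 and 82.6 in D-3, 138, 144 and 138 in DP-3 day 1, 106, 86.9 and 107 in DP-3, 56.1, 85.1 and 105 in IT, and 50.9, 57.5 and 111 in FIT. Within FIT, replicate 3, the library with the lowest total, stood well above the other FIT libraries, and MMP2 was not called in any comparison. MMP14, the membrane enzyme that activates proMMP2, was 160.3, 184 and 234 FPKM in FIT, 190.4, 212 and 173 in IT, 148, 147 and 142 in DP-3 day 1, 131, 123 and 102 in DP-3, 91.4, 94.6 and 95.8 in D-2, and 87.3, 96.9 and 82.4 in D-3. FIT and IT were above all other groups, and D-2 and D-3 overlapped. MMP9, the other gelatinase, was 1.37, 1.33 and 5.05 FPKM in FIT, 3.22, 11.1 and 3.97 in IT, 2.28, 3.68 and 9.24 in DP-3, 1.80, 1.89 and 2.33 in D-2, 4.12, 2.61 and 3.27 in D-3, and 3.31, 3.12 and 2.86 in DP-3 day 1. In FIT, IT and DP-3 1 library stood above the other 2, and MMP9 was not called.

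Of the other membrane-type MMPs, MMP15 was 4.73, 3.09 and 4.69 FPKM in FIT, 6.78, 7.07 and 6.65 in D-2, 12.5, 9.68 and 17.6 in D-3, 10.4, 6.57 and 15.0 in IT, 6.35, 4.64 and 5.16 in DP-3, and 21.6, 21.6 and 20.3 in DP-3 day 1. It was highest in printed tissue at day 1 and near its lowest there at day 14. MMP16 was 3.52, 3.53 and 3.50 FPKM in DP-3, 1.77, 1.9 and 1.86 in D-2, 1.97, 2.13 and 1.77 in D-3, 2.01, 2.05 and 1.94 in DP-3 day 1, 1.53, 1.76 and 1.65 in IT, and 0.979, 1.35 and 2.98 in FIT. The DP-3 libraries stood above all others, with FIT replicate 3 the nearest. MMP25, which is held to the membrane by a lipid anchor, was 0.618, 0.475 and 0.684 FPKM in FIT, 0.0746, 0.147 and 0.0387 in D-2, 0.469, 0.368 and 0.434 in D-3, 0.292, 0.502 and 0.360 in DP-3 day 1, 0.199, 0.116 and 0.0913 in DP-3, and 0.234, 0.142 and 0.536 in IT. D-2 and DP-3 at day 14 were low, and it shares 1454 exon bases with MMP25-AS1 on the other strand. MMP24 was 0.328, 0.163 and 0.176 FPKM in DP-3 day 1, 0.0408, 0.0484 and 0.0518 in DP-3, 0.0294, 0.0378 and 0.0533 in D-2, 0.0647, 0.0816 and 0.0958 in D-3, 0.238, 0.187 and 0.0757 in IT, and 0.151, 0.0824 and 0.175 in FIT. All cultures at day 14 except IT stayed under 0.1 FPKM of it, and it shares 799 exon bases with MMP24OS on the other strand.

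MMP19, which is expressed in many normal tissues, was 3.62, 4.25 and 4.25 FPKM in FIT, 1.12, 1.06 and 1.33 in D-2, 2.02, 2.35 and 1.98 in D-3, 2.47, 2.16 and 2.1 in DP-3 day 1, 1.1, 1.25 and 1.4 in DP-3, and 1.45, 1.83 and 2.54 in IT. All FIT libraries were above every other library. It shares 814 exon bases with TMEM198B on the other strand. Among the members not described singly, MMP17 ran from 0.856 to 2.06 FPKM over the libraries, MMP21 from 0 to 0.379, MMP23A from 0 to 0.855 and MMP23B from 0 to 0.474. MMP8, MMP11, MMP20, MMP26, MMP27 and MMP28 averaged under 0.1 FPKM in every group.

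**Figure D2:**
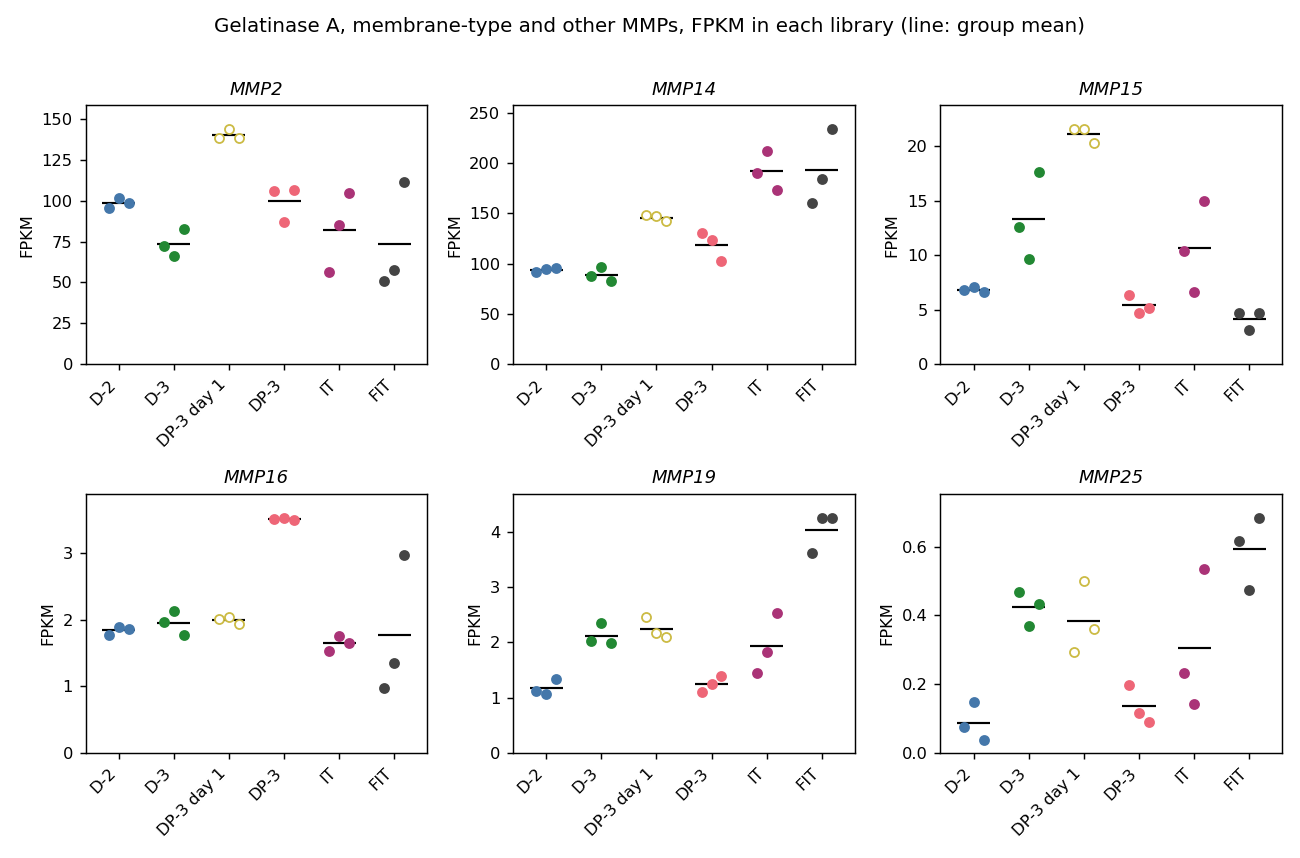
FPKM of 6 further MMP genes in each of the 18 libraries, with 1 panel per gene, linear axes from 0, points for libraries and a line at the group mean; open points mark DP-3 day 1. MMP19 is highest in the 3 FIT libraries (3.62 to 4.25 FPKM), MMP16 in DP-3 (3.50 to 3.53) and MMP15 in DP-3 day 1 (20.3 to 21.6).

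Of the procollagen N-propeptidases, which trim the ends of fibrillar procollagens, ADAMTS14 (chr10:70672506-70762441) was 11.9, 13.6 and 15.0 FPKM in FIT, 7.88, 11.1 and 3.41 in IT, 3.78, 4.50 and 3.54 in DP-3, 3.01, 3.24 and 2.15 in D-3, 1.79, 2.09 and 1.78 in DP-3 day 1, and 0.436, 0.556 and 0.778 in D-2. The group means fell in that order, and only IT and DP-3 overlapped among neighbours. ADAMTS3, of the same subgroup, ran differently: it was 1.93, 1.95 and 1.93 FPKM in D-2, 0.673, 0.950 and 0.846 in D-3, 1.15, 1.2 and 1.43 in DP-3 day 1, 1.16, 1.61 and 1.36 in DP-3, 0.754, 1.29 and 0.751 in IT, and 0.227, 0.651 and 1.02 in FIT. D-2 was its highest group. ADAMTS2, the third of them, ran from 0.339 to 1.98 FPKM over the libraries and was not called.

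Of the proteoglycanases, ADAMTS1, which cuts versican and aggrecan, was 28.1, 25.6 and 6.46 FPKM in FIT, 15.4, 13.4 and 12.6 in IT, 10.4, 9.57 and 10.03 in DP-3, 8.93, 10.1 and 7.80 in D-2, 4.16, 4.16 and 4.84 in DP-3 day 1, and 1.89, 3.53 and 1.87 in D-3. D-3 was below every other library, and FIT replicate 3 fell under D-2, DP-3 and IT. ADAMTS9, another versican-cutting enzyme, was 0.226, 0.255 and 0.234 FPKM in FIT, 0.499, 0.683 and 0.700 in D-3, 0.333, 0.304 and 0.291 in D-2, 0.442, 0.490 and 0.410 in DP-3 day 1, 0.628, 0.371 and 0.387 in DP-3, and 0.241, 0.358 and 0.441 in IT. FIT was its lowest group, below all D-2 and D-3 libraries. ADAMTS15 was 0.977, 0.951 and 1.27 FPKM in D-3, 1.87, 1.96 and 1.58 in D-2, 1.84, 2.28 and 1.69 in DP-3 day 1, 1.32, 1.1 and 1.53 in DP-3, 1.42, 1.37 and 1.53 in IT, and 1.77, 1.34 and 1.61 in FIT, so D-3 was its lowest group and overlapped DP-3. ADAMTS4 and ADAMTS5, the main cartilage aggrecanases, averaged under 0.1 FPKM in every group.

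ADAMTS13 (chr9:133414358-133459386), the protease that cuts von Willebrand factor, was 0.0410, 0.0222 and 0.0540 FPKM in D-2 and 0.0454, 0.109 and 0.113 in DP-3. The other groups had 1.18, 0.748 and 1.08 in D-3, 0.879, 0.816 and 0.932 in DP-3 day 1, 0.841, 0.716 and 0.886 in IT, and 0.308, 0.324 and 0.614 in FIT. No library of D-2 or DP-3 reached the lowest library of any other group. ADAMTS12 (chr5:33523535-33891990), the most abundant ADAMTS transcript, was 7.31, 7.89 and 9.40 FPKM in D-3, 20.9, 20.3 and 18.5 in D-2, 14.02, 14.2 and 13.8 in DP-3 day 1, 18.04, 16.3 and 17.2 in DP-3, 15.8, 20.1 and 7.30 in IT, and 13.9, 19.5 and 19.9 in FIT. D-3 and IT replicate 3 were low, and the other libraries lay between 13.8 and 20.9 FPKM.

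ADAMTS10 and ADAMTS6 are related enzymes tied to fibrillin microfibrils. ADAMTS10 was 1.62, 1.76 and 1.81 FPKM in FIT, 1.42, 1.18 and 1.32 in DP-3 day 1, 0.353, 0.400 and 0.428 in D-2, 0.529, 0.598 and 0.643 in D-3, 0.427, 0.783 and 0.519 in IT, and 0.441, 0.470 and 0.289 in DP-3. All groups at day 14 of culture were below DP-3 day 1 and FIT. ADAMTS6 was 2.43, 2.40 and 2.43 FPKM in D-2, 1.67, 1.42 and 1.85 in D-3, 1.04, 1.53 and 1.19 in DP-3 day 1, 0.808, 1.19 and 0.734 in DP-3, 0.633, 1.11 and 2.01 in IT, and 0.819, 0.435 and 1.31 in FIT, so D-2 was highest here too. Of the rest, ADAMTS16 ran from 1.01 to 2.27 FPKM, ADAMTS7 from 0.0359 to 0.549 and ADAMTS18 from 0.0447 to 0.363. ADAMTS8, ADAMTS17, ADAMTS19 and ADAMTS20 averaged under 0.1 FPKM in every group.

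**Figure D3:**
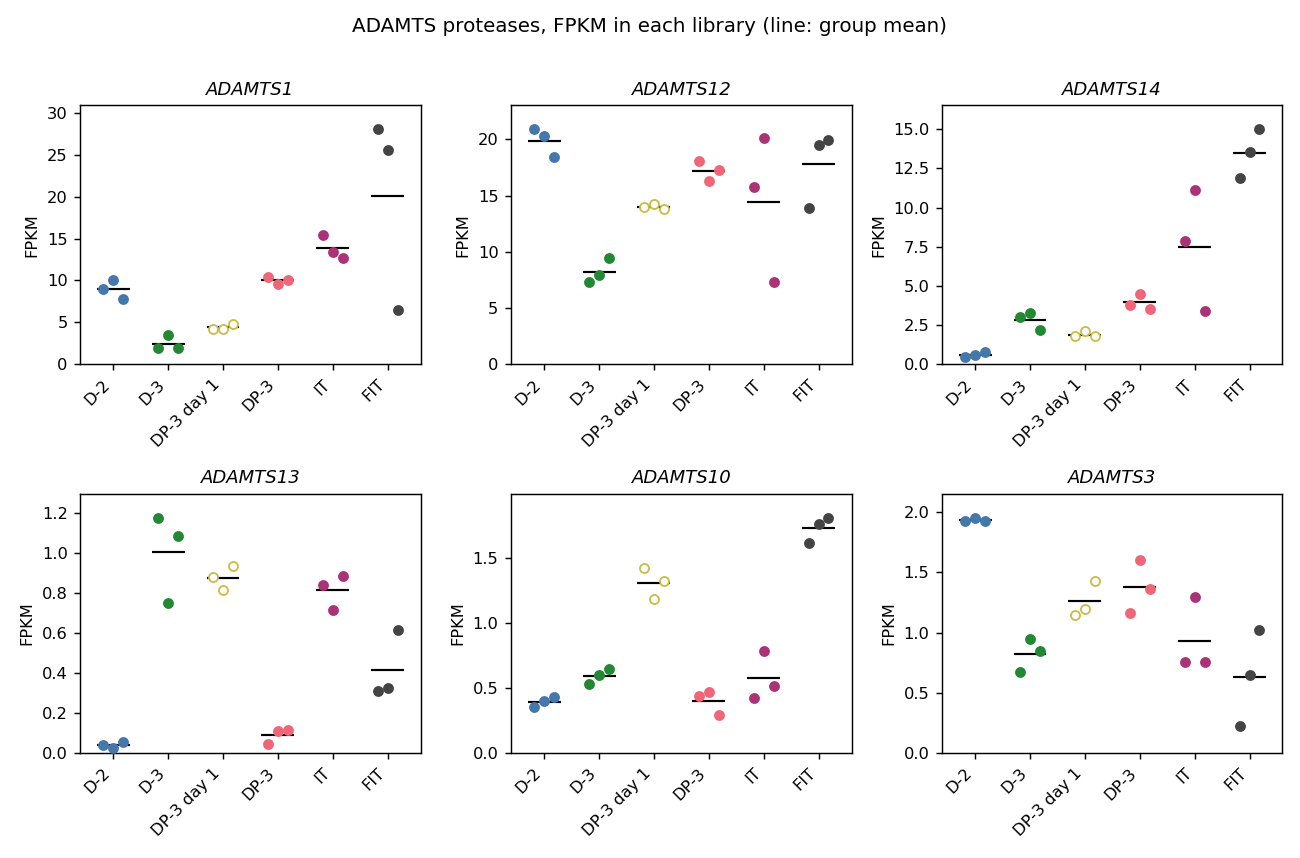
FPKM of 6 ADAMTS genes in each of the 18 libraries, with 1 panel per gene, linear axes from 0, points for libraries and a line at the group mean; open points mark DP-3 day 1. ADAMTS14 is highest in FIT (11.9 to 15.0 FPKM), ADAMTS1 and ADAMTS12 are lowest on average in D-3, and ADAMTS13 is at most 0.113 FPKM in D-2 and DP-3.

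Promoters of 27 of the 47 members were matched in the RefSeq promoter table (GRCh38.p14). The others were not searched, among them MMP1, MMP2, MMP3, MMP9, MMP12, MMP13, ADAMTS1 and TIMP2. The motif TGANTCA, the letters bound by AP-1 factors and its own reverse complement on the other strand, was searched from 250 bases before to 50 after each start. It was found in 7.72% of the 34943 promoters of the table and in 4 of the 27 members: MMP7, MMP10, MMP20 and ADAMTS12. The 150 bases before the start are printed 5′ to 3′ on the gene's strand, with the motif in capitals, for the 3 called members that held it, and ADAMTS14 is given as a called member without it.
MMP7 (chr11:102530748-102530897): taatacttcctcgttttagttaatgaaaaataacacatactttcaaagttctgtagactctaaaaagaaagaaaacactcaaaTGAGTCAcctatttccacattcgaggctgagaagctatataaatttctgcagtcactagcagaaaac
MMP10 (chr11:102780629-102780778): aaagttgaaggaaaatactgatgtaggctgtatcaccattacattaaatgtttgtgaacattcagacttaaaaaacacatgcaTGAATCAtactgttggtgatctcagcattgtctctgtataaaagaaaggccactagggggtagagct
ADAMTS12 (chr5:33891991-33892140): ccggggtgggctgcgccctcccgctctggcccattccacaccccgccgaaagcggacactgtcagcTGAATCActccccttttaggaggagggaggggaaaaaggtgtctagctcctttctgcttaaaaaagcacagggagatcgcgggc
ADAMTS14 (chr10:70672356-70672505): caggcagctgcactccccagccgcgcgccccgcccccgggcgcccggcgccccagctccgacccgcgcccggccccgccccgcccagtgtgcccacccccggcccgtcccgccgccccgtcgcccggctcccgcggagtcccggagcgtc
The motif began 67 bases before the start in both MMP7 and MMP10, and 84 bases before it in ADAMTS12. MMP10 and MMP7, the latter at or below the detection limit in D-2, were higher in D-3 than in D-2, and ADAMTS12 was lower there. A link between the motif and these changes was not tested. A match of letters does not show binding.

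TIMP1 was 67.5, 69.3 and 71.4 FPKM in D-2, 129, 125 and 137 in D-3, 89.5, 87.0 and 90.2 in DP-3 day 1, 105, 90.7 and 76.3 in DP-3, 91.5, 61.0 and 233 in IT, and 85.3, 77.1 and 75.0 in FIT. D-3 was above all libraries except IT replicate 3. TIMP3, which stays bound to matrix and also inhibits ADAMTS proteases, was 226, 217 and 187 FPKM in D-2, 580.4, 249 and 576 in D-3, 403, 409 and 411 in DP-3 day 1, 254, 176 and 260.3 in DP-3, 416, 180.3 and 739.9 in IT, and 492, 481 and 355 in FIT. All D-2 and DP-3 libraries were below all FIT libraries, and IT alone ran from 180.3 to 739.9 FPKM.

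TIMP2, which forms the complex in which MMP14 activates proMMP2, was 25.5, 28.1 and 43.4 FPKM in D-2, 52.0, 85.1 and 38.4 in D-3, 37.9, 123 and 30.4 in DP-3 day 1, 86.0, 92.2 and 111 in DP-3, 62.4, 40.2 and 63.1 in IT, and 52.6, 140.4 and 70.9 in FIT. Its highest and lowest values differed 4.04-fold among the DP-3 day 1 libraries, which otherwise hardly differed: over 4048 genes with a mean of at least 10 FPKM the median ratio was 1.09, and 14 genes had a ratio that large. TIMP2 shares 198 exon bases with CEP295NL on the same strand, and the part of this overlap in its spread was not tested. TIMP4 averaged under 0.1 FPKM in every group.

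**Figure D4:**
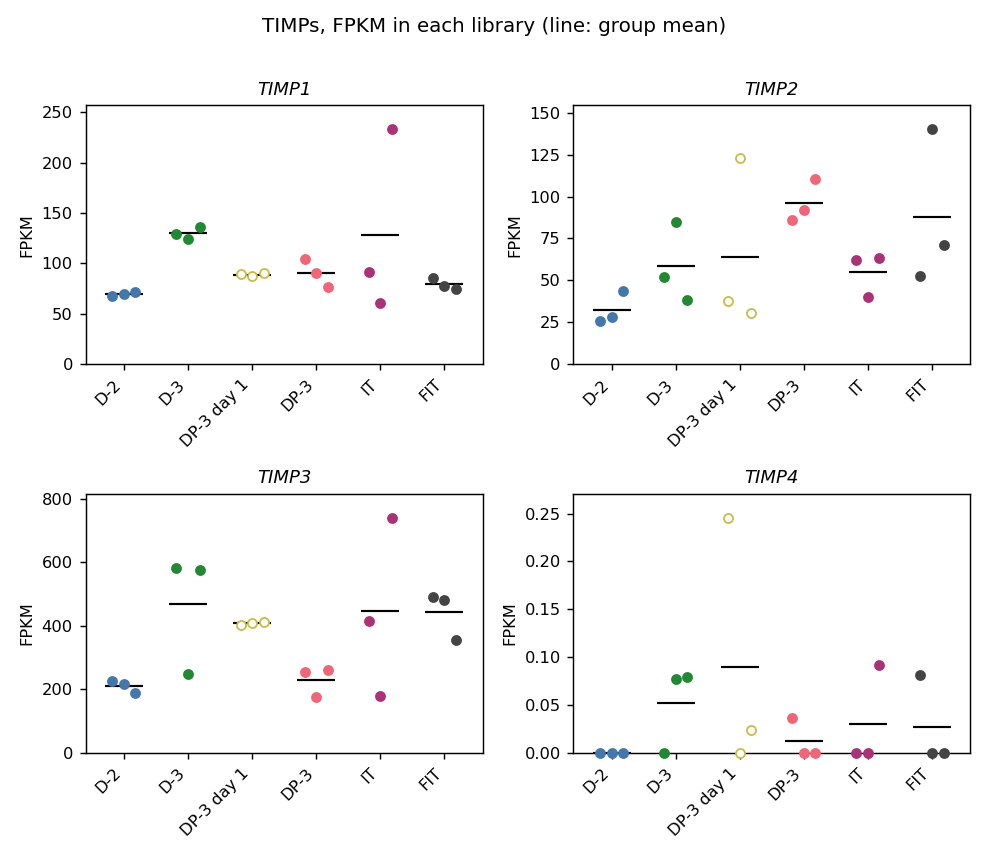
FPKM of the 4 TIMP genes in each of the 18 libraries, with 1 panel per gene, linear axes from 0, points for libraries and a line at the group mean; open points mark DP-3 day 1. TIMP3 is the most abundant, TIMP2 spreads 4.04-fold among the 3 DP-3 day 1 libraries, and TIMP4 is at most 0.246 FPKM.

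Changes were tested on the estimated counts with edgeR's quasi-likelihood test, and a gene was called upregulated or downregulated at a Benjamini-Hochberg adjusted p under 0.05 over all genes tested and at least a 2-fold change. A gene was tested if at least 3 of the 6 libraries reached 0.1 FPKM. A gene under 0.1 FPKM in every library of 1 group could thus be tested only if all libraries of the other were higher. Among the calls this held for ADAMTS13 and MMP7 in D-3 against D-2 and for ADAMTS13 in D-2 against FIT. In DP-3 against DP-3 day 1 it held for MMP24. Of the members, 34 were tested in some comparison, 27 in all 8, and 21 were called in at least 1 of the 7 comparisons without DP-3 day 1 (11 MMP, 9 ADAMTS and 1 TIMP). Differences below are log2 fold changes of the first group relative to the second, with their standard errors (SE). Whether libraries overlapped was judged on FPKM, without the TMM scaling of the test, so the measures can differ. TIMP1, for example, was lower in all D-2 than in all FIT libraries by FPKM, at a log2 fold change of -0.03. The comparisons with FIT ask how far each culture carries the transcripts of the tumor in vivo, and the others how the cultures differ. They share groups, FIT among them, so they are not independent of each other.

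Compared with the FIT group, D-2 had far more MMP3 and far less ADAMTS14. MMP3 was upregulated by 5.13 (SE 0.26, adjusted p = 0.000481) and ADAMTS14 changed by -4.36 (SE 0.25, adjusted p = 0.000744). Of the 29 members tested, 10 were called (34.5%), 4 higher and 6 lower, against 14.6% of all genes tested (3.83% higher and 10.8% lower). The libraries of the groups did not overlap in 19 members (65.5%), against 49.9% of all genes tested. The other higher genes were ADAMTS3 (1.78), ADAMTS6 (1.67) and MMP13 (1.3). The other lower ones were ADAMTS13 (-3.18), MMP25 (-2.57), ADAMTS10 (-1.98), MMP19 (-1.63) and TIMP2 (-1.31). Members had a median of -0.18, and all genes -0.09. The call on TIMP2 was lost without any single D-2 library or without FIT replicate 2 or 3 (adjusted p 0.0532 to 0.137), that on ADAMTS3 without any D-2 library or FIT replicate 2 (0.075 to 0.0782), and that on MMP13 without D-2 replicate 1 or 2 (0.0721 and 0.0561).

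D-3 had more MMP3, MMP12 and MMP13 than FIT and less ADAMTS1 and ADAMTS14. MMP3 was upregulated by 7.17 (SE 0.35, adjusted p = 0.000273), MMP12 by 4.41 (SE 0.85, adjusted p = 0.0212) and MMP13 by 2.46 (SE 0.45, adjusted p = 0.0188), along with MMP15 (1.62) and ADAMTS9 (1.33). ADAMTS1 (-3.11), ADAMTS14 (-2.33), ADAMTS10 (-1.60), ADAMTS12 (-1.18) and MMP14 (-1.17) were downregulated. The cluster genes MMP1 (1.25, adjusted p = 0.101), MMP10 (1.09, adjusted p = 0.533) and MMP7 (adjusted p = 0.0693) were not called. These were 10 of 33 members (30.3%), against 6.45% of all genes tested (4.29% higher and 2.17% lower), with medians of 0.10 and 0.02. The libraries did not overlap in 20 members (60.6%), against 32.4% of all genes tested. The calls on MMP3, ADAMTS14 and MMP15 were the ones that remained without any single library. Without D-3 replicate 3 only these 3 members were called, and without D-3 replicate 1 or FIT replicate 2 the number was 5. The call on ADAMTS9 was lost whichever library was left out, that on MMP14 without D-3 replicate 3, that on ADAMTS10 without D-3 replicate 1 or 3, those on ADAMTS12, ADAMTS1 and MMP12 without either of these or FIT replicate 2, and that on MMP13 without D-3 replicate 3 or FIT replicate 1 or 2.

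DP-3 had more MMP3 and MMP13 than FIT, and less ADAMTS14. MMP3 was upregulated by 6.0 (SE 0.29, adjusted p = 0.000687), MMP13 by 4.21 (SE 0.34, adjusted p = 0.00264), MMP12 by 4.73 (SE 1.07, adjusted p = 0.0384) and MMP1 by 1.5 (SE 0.37, adjusted p = 0.0482). ADAMTS13 (-2.06), ADAMTS10 (-1.99), MMP25 (-1.97), ADAMTS14 (-1.65) and MMP19 (-1.56) were downregulated. The calls took in 9 of 30 members (30.0%), 4 higher and 5 lower, against 4.82% of all genes tested (1.66% higher and 3.16% lower), with medians of 0.23 and -0.06. The libraries did not overlap in 16 members (53.3%), against 34.1% of all genes tested. MMP3, MMP13 and ADAMTS14 remained called without any single library. The number called was 3 without DP-3 replicate 1 or FIT replicate 2, 4 without DP-3 replicate 2, and 5 without DP-3 replicate 3 or FIT replicate 1. MMP25, MMP12 and MMP1 were lost in each of these fits, MMP19 in those without DP-3 replicate 1 or 2 or FIT replicate 2, ADAMTS10 in those without DP-3 replicate 1 or FIT replicate 2, and ADAMTS13 in all 6 (adjusted p 0.0785 to 0.127). Without FIT replicate 3, the shallow library, the number called was 11 for DP-3, 10 for D-3 and 14 for D-2 against FIT.

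Between IT and FIT edgeR called 0 of 33 members, against 0% of all genes tested. At an unadjusted p under 0.05 there were 2693 genes, 10 of them members: MMP3 (5.79, SE 0.82, adjusted p = 0.127), MMP12 (3.68), ADAMTS18 (1.66), MMP15 (1.37), MMP1 (1.21) and ADAMTS13 (0.98) in 1 direction, and ADAMTS7 (-1.60), ADAMTS10 (-1.58), ADAMTS2 (-1.20) and MMP19 (-1.05) in the other. DESeq2 called 6 members here (MMP3, MMP12, MMP15, ADAMTS18, ADAMTS10 and MMP19), and an edgeR fit of all 18 libraries called 5 (MMP3, MMP15, MMP1, ADAMTS10 and MMP19), of 641 and 553 genes in all. IT and FIT libraries did not overlap in 11 of 33 members (33.3%), against 20.6% of all genes tested, and each IT library had at least 3.11 FPKM of MMP3 where no FIT library passed 0.320.

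D-3 against D-2 showed the most calls among the members. ADAMTS13 was upregulated by 4.36 (SE 0.41, adjusted p = 0.00141), and of the 6 cluster genes tested 5 were upregulated: MMP7 (3.32), MMP12 (2.06), MMP3 (1.98), MMP10 (1.97) and MMP1 (1.17). MMP13 had 1.12 (adjusted p = 0.0539). MMP7 and ADAMTS13 stayed under 0.1 FPKM in every D-2 library, so the filter let them be tested only as higher in D-3. Both are in the counts of this paragraph. MMP7 was at or below the detection limit in D-2, and against that limit the D-3 mean was at least 5.39-fold higher. D-3 replicate 3 carried this mean: without it the bound was 3.01-fold, and for the lowest D-3 library 1.99-fold. MMP25 (2.00) and ADAMTS14 (1.99) were also upregulated, while ADAMTS1 (-2.13), ADAMTS12 (-1.53), ADAMTS3 (-1.48) and ADAMTS15 (-1.01) were downregulated. The 12 called members, 8 higher and 4 lower, made 38.7% of 31 tested, against 18.5% of all genes tested (14.6% higher and 3.95% lower), and the members' median was 0.66 against 0.11. The libraries did not overlap in 27 members (87.1%), 21 of them higher in D-3, against 53.2% of all genes tested. Calls were lost for MMP25 without D-3 replicate 1 or 3 or D-2 replicate 1, for MMP7 without D-2 replicate 1 or 2, for ADAMTS15 without D-3 replicate 1 or 2 or D-2 replicate 1 or 2, and for MMP1 without D-3 replicate 2, where the fold change fell under the threshold.

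Printed tissue had fewer members called against flat culture. DP-3 had 5 of 29 members called against D-2 (17.2%), against 1.04% of all genes tested (0.722% higher and 0.318% lower). MMP13 (2.91, SE 0.29, adjusted p = 0.0141), ADAMTS14 (2.70, SE 0.23, adjusted p = 0.0114), TIMP2 (1.55) and MMP1 (1.45) were upregulated and ADAMTS6 (-1.44) downregulated, with medians of 0.42 over members and 0.03 over all genes. The libraries did not overlap in 17 members (58.6%), against 30.9% of all genes tested. MMP3 had 0.86 (adjusted p = 0.0336) and MMP16 0.90 (adjusted p = 0.0141), both under 2-fold. The number called was 0 without D-2 replicate 2, 1 (ADAMTS14) without D-2 replicate 1, 2 (ADAMTS14 and TIMP2) without D-2 replicate 3, 2 (MMP13 and ADAMTS14) without DP-3 replicate 1, and without DP-3 replicate 2 TIMP2 was lost.

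Against D-3, DP-3 had 7 of 33 members called (21.2%), against 9.12% of all genes tested (1.98% higher and 7.15% lower), with medians of -0.16 and -0.05. The libraries did not overlap in 22 members (66.7%), against 39.7% of all genes tested. ADAMTS1 (2.26, SE 0.27, adjusted p = 0.00547), ADAMTS12 (1.29) and MMP16 (1.07) were upregulated and ADAMTS13 (-3.25, SE 0.45, adjusted p = 0.00793) downregulated, and these remained called without any single library. MMP13 (1.78), MMP3 (-1.13) and MMP15 (-1.08) were called too. Without DP-3 replicate 1 or D-3 replicate 3 all 3 of these calls were lost and 4 members were called. MMP15 and MMP3 were also lost without DP-3 replicate 2, all 3 without DP-3 replicate 3, and MMP15 and MMP13 without D-3 replicate 1.

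Between day 1 and day 14 of printed culture, MMP13 was higher by 3.49, MMP12 by 3.07, MMP1 by 2.15, ADAMTS1 by 1.47, ADAMTS14 by 1.34 and MMP16 by 1.09 at day 14 when the day 1 libraries were averaged to 1 sample. ADAMTS13 had -2.99, MMP24 -1.91, MMP15 -1.69 and ADAMTS10 -1.43. In this fit edgeR called 0 of 32 members and 0 of 20774 genes. The members named were picked by their calls in the fit of separate libraries. TIMP2 (0.88) and ADAMTS12 (0.57) were also higher at day 14 in the averaged fit. With the 3 day 1 libraries taken as separate, these 10 members were called (31.2%), 6 higher and 4 lower, against 7.56% of all genes tested (1.81% higher and 5.76% lower), with p-values too small for samples so alike. Libraries of the days did not overlap in 17 members (53.1%), against 45.2% of all genes tested. In that fit MMP24 was called only without DP-3 replicate 3, and MMP12, whose libraries overlapped between the days, only without DP-3 replicate 1. DESeq2 called 11 members on the separate libraries.

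**Figure D5:**
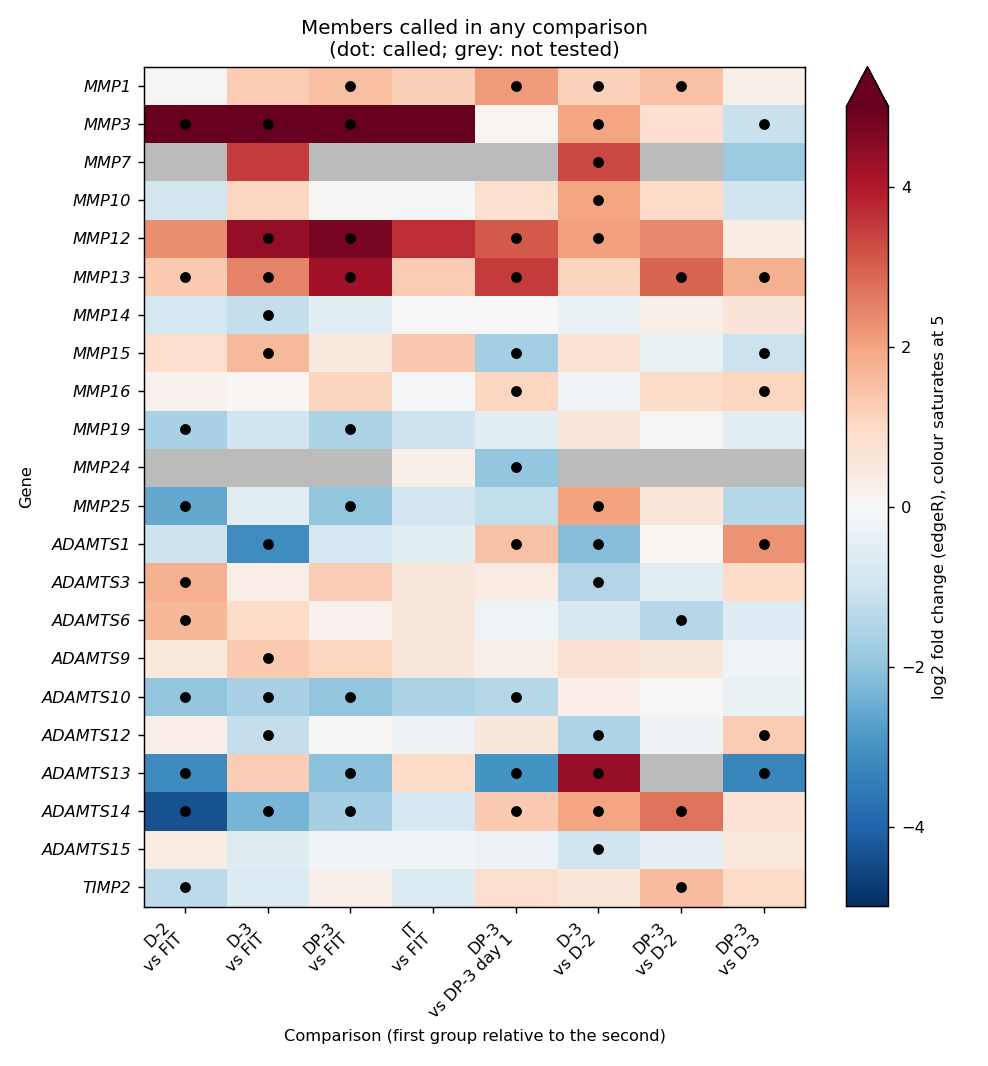
Log2 fold changes by edgeR of the 22 members called in any of the 8 comparisons; rows are genes, columns comparisons of the first group relative to the second, colour gives the log2 fold change up to 5, a dot marks a call and grey a gene not tested. MMP3 is the darkest row in the comparisons with FIT and is not called in IT; calls against DP-3 day 1 take its near-alike libraries as separate.

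Genes that work with these families were counted on the same fits. Of 7 plasminogen activators and inhibitors, 6 were tested throughout. Against FIT 3 were called for D-3, 2 for DP-3 and 2 for D-2, 1 of them higher in each comparison. The shares of all genes called were 6.45% for D-3, 4.82% for DP-3 and 14.6% for D-2 against FIT and 18.5% for D-3 against D-2, and with lists of 4 to 16 tested genes the counts in this paragraph describe the lists and set none of them apart. PLAT, the tissue plasminogen activator, averaged 19.3 FPKM in FIT and 1.91 in DP-3, 2.40 in D-3 and 3.83 in D-2, and was downregulated against FIT in each (-3.20, -3.06 and -2.17). Of 9 membrane ADAM proteases, 7 were tested, with 1 called for D-3, 1 for DP-3 and 2 for D-2 against FIT, and ADAM19 was downregulated against FIT in D-3 (-2.66), DP-3 (-1.45) and D-2 (-1.21). Of 17 matrix substrates, 8 were tested in D-3 against FIT and 7 each in DP-3 and D-2. The numbers called were 3, 2 and 4, all lower except 1 in D-2, and COL1A1 was downregulated in each (-2.87, -2.16 and -2.12). Of 16 transcription factors that act on protease promoters, 4 were called for DP-3, 4 for D-2 and 2 for D-3 against FIT, 1 of them higher in each. FOSL1, an AP-1 subunit, was upregulated in D-2 (1.46) and DP-3 (1.81), and FOSB was downregulated in DP-3 (-2.66), D-3 (-2.46) and D-2 (-2.32). In D-3 against D-2 the AP-1 genes JUNB (1.39) and JUND (1.63) were upregulated. Of 8 other regulators of metalloproteinases, 1 of 6 tested was called in D-2 against FIT, 1 of 7 in D-3 against FIT and 1 of 7 in D-3 against D-2, and of 7 ADAMTS-like genes 2 of 4 tested in D-2 against FIT and 1 of 4 in D-3 against D-2.

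Markers of mouse host tissue moved with FIT in part. Endothelial genes summed to 5.52 to 9.39 FPKM in FIT and 4.43 to 8.19 in IT, against 1.3 to 4.39 in the cultured cells, and PECAM1 and ESAM made most of these sums. Of the 7 endothelial genes 4 were tested against FIT, of which 2 were called lower in DP-3, 3 in D-3 and 4 in D-2, while KDR averaged 0.00175 FPKM in FIT and 0.0350 in D-3 and VWF 0.00772 and 0.0656. Of 4 keratinocyte genes, KRT14 (0.115 to 10.4 FPKM in FIT) and KRT5 were called lower in each of these cultures than in FIT, KRT10 averaged 25.0 FPKM in FIT and 19.2 to 24.7 in those cultures, and KRT1 was at 0 in FIT. Of all genes tested, 3.16% were called lower than in FIT in DP-3, 2.17% in D-3 and 10.8% in D-2. KRT5, KRT14 and CDH5 in D-3 and DP-3, and TEK in D-2 and DP-3, stayed under 0.1 FPKM in every library. The filter let them be tested there only as lower than in FIT. Neutrophil genes summed to at most 0.0322 FPKM in FIT, C1QA, C1QB, C1QC, TYROBP and AIF1 were at 0 there, and fibroblast genes summed to 62.1 to 87.7, within the range of 61.1 to 132 in the cultured cells. Skeletal muscle genes summed to 0.946 to 1.49 FPKM in FIT and 0.157 to 1.80 in the cultured cells. Of these, ACTA1, MYLPF, TNNT3 and MYH4 had their highest group mean in FIT, though only 0.0889 to 0.245 FPKM. DES (0.286 FPKM in FIT and 1.15 in D-3), CKM and TTN did not. Adipocyte genes summed to at most 0.178 FPKM in FIT and 8.71 in the cultured cells. By group mean, MMP14, MMP19, MMP25, ADAMTS1, ADAMTS2, ADAMTS10, ADAMTS14 and ADAMTS16 were also highest in FIT. The part of host RNA in these results was not tested. In bulk samples, fewer cells of a type and less RNA per cell cannot be told apart.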

How the data were processed

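RNA was measured in 18 libraries, 3 in each of 6 groups, assigned by the titles of the deposited records. Per the labels, the authors selected poly(A) RNA, prepared strand-marked (dUTP) libraries and sequenced them in pairs of 150 bases. The submitters' processing notes name cutadapt 1.9, HISAT2 2.0.4, StringTie 1.3.4d, DESeq2 and edgeR. The authors computed the deposited FPKM values from the StringTie assembly. How the authors made the deposited estimated counts is not given in the sources used here, nor are the genome build and the annotation; the positions of all 47 members overlap their RefSeq genes on GRCh38.p14. The estimated counts are whole numbers that step by about 4 for each read pair, so the precision of low genes is less than their counts alone would give.

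The 6 libraries of a comparison were fitted alone with edgeR 4.0.16 (TMM scaling, quasi-likelihood test, two-sided) under R 4.3.3, on genes with at least 0.1 FPKM in at least 3 of the 6, with p-values adjusted over all genes tested. Genes at an adjusted p under 0.05 and at least a 2-fold change were called. The scripts were tested on simulated data. Members called in any comparison, or with a group mean of at least 5 FPKM, were described singly. Of each related list at most 4 genes were described, drawn from the most abundant and those called in at least 4 comparisons. Not every gene that met this was given. The members, the related lists and the marker lists were chosen with earlier results of these data known. Alternatives were DESeq2 1.42.0, limma 3.58.1 on log2 FPKM, other scaling and filters, 1 fit of all 18 libraries, a replicate block and leaving out each library. Same-numbered libraries did not deviate together (correlations of -0.06 to 0.111), so the numbers were not used as pairs. Averaging the DP-3 day 1 libraries to 1 was chosen after seeing the data. Sequences are from RefSeq (GRCh38.p14) and GENCODE 29, and in the fits without 1 library the set of genes tested was kept. Values of 1 gene counted in the accompanying lists are not reported here.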

Additional observations from a re-analysis of the deposited data

Results flagged for a closer look

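For 5 genes the log2 changes from FIT had opposite signs in a pair of culture groups, and the difference between those groups itself passed edgeR's test. The share of all genes that meet this rule is not given here, so the number does not set the members apart. Some of these changes were smaller than their SE, so their sign is not settled. They were ADAMTS12 in DP-3 (0.07, SE 0.19), TIMP2 in DP-3 (0.24, SE 0.37) and MMP10 in D-2 (-0.91, SE 0.99). ADAMTS13 had 1.23 in D-3, which did not pass the test against FIT, and was downregulated in D-2 (-3.18), a difference of 4.36 (adjusted p = 0.00141, all 3 D-3 libraries above all 3 D-2 libraries). It was downregulated in DP-3 too (-2.06), a difference of DP-3 from D-3 of -3.25 (adjusted p = 0.00793, libraries not overlapping). ADAMTS12 was downregulated in D-3 (-1.18) and had 0.31 in D-2 and 0.07 in DP-3, neither of which passed, with differences of -1.53 for D-3 against D-2 (adjusted p = 0.00123) and 1.29 for DP-3 against D-3 (adjusted p = 0.00561). TIMP2 was downregulated in D-2 (-1.31) and had 0.24 in DP-3, which did not pass, a difference of 1.55 (adjusted p = 0.0298). MMP10 had 1.09 in D-3 and -0.91 in D-2 and ADAMTS15 -0.62 and 0.35, none of which passed against FIT, with differences of D-3 from D-2 of 1.97 (adjusted p = 0.00693) and -1.01 (adjusted p = 0.00846). The call on ADAMTS15 was lost without D-3 replicate 1 or 2 or D-2 replicate 1 or 2. Of the 6 fits without 1 library, TIMP2 was called in 1 for D-2 against FIT and in 2 for DP-3 against D-2. ADAMTS13 was called in 0 of 6 for DP-3 against FIT, and ADAMTS12 in 3 of 6 for D-3 against FIT. The TIMP2 values also spread 4.04-fold among the nearly alike DP-3 day 1 libraries.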

How the results depend on the processing

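The number of members called was within 1.5 times the reported one, or exactly as reported, under each alternative not named here. With limma on log2(FPKM + 1) the number was 6 for D-2 against FIT, 4 in DP-3 against FIT, 4 in DP-3 against DP-3 day 1, 7 in D-3 against D-2 and 4 in DP-3 against D-3, and with limma on log2(FPKM + 0.01) it was 5 in DP-3 against FIT; the cause was not tested. In IT against FIT the number was 6 with DESeq2, 1 without the filter and 5 in 1 fit of all 18 libraries, and in DP-3 against D-2 it was 8 with DESeq2; the cause was not tested. An FPKM minimum of 1 left 6 in DP-3 against DP-3 day 1, with fewer genes tested, and the cause of the drop was not tested. Averaging the day 1 libraries to 1, chosen after seeing the data, leaves 1 sample in that group, so it is read by its fold changes. Under the replicate block the number was 4 in DP-3 against FIT and 2 in DP-3 against D-2, and the block left the others within 1.5 times; the labels name no shared source for a number. Leaving out 1 library gave 7 to 14 members in D-2 against FIT, 3 to 10 in D-3 against FIT, 3 to 11 in DP-3 against FIT, 0 in IT against FIT, 8 to 11 in DP-3 against DP-3 day 1, 9 to 14 in D-3 against D-2, 0 to 5 in DP-3 against D-2 and 4 to 10 in DP-3 against D-3. Of 53 calls on 21 members in the 7 comparisons without DP-3 day 1, 25 remained in all 6 of these fits and 2 in 0 of them. The 10 calls against DP-3 day 1 took as separate the 3 libraries that are counted here as 1 sample. No label says that these libraries are 1 sample. No called change turned its direction under any alternative run. FIT replicate 3, with 23721666 counts, limits the low genes: 12 counts were 0.506 CPM there and 0.152 to 0.238 CPM elsewhere.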
